A study of Rattus norvegicus with 6 samples.

Results

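The coat and cargo-receptor genes of the early secretory pathway were examined in rat RA-FLS (fibroblast-like synoviocytes of rheumatoid arthritis, the connective tissue cells that line the joint) treated with TNF-α alone or with TNF-α and emodin (EMO). Members were chosen by name: protein-coding genes of the COPI coatomer (Arcn1 and the Cop subunits), the COPII coat (Sar1, Sec13, Sec16, Sec23, Sec24 and Sec31), the Sec22 proteins, the p24 family (Tmed), Lman1, Mcfd2, Preb and the 3 KDEL receptors. The rule found 40 genes among the 34156 of the deposited table, and 36 of them had at least 10 counts in at least 3 libraries, as did 13614 genes in all, and were tested. The study sequenced poly(A)-selected RNA from 6 libraries of 1 primary rat cell type. The TNF-α group (3 libraries) received 10 ng/ml TNF-α, and the TNF-α+EMO group (3 libraries) received the same TNF-α together with 80 μmol/L EMO, an anthraquinone from rhubarb. All 6 libraries therefore carry TNF-α, no untreated library was analysed here, and neither a strain nor an animal age is given. The labels place every sample at day 5, whereas the methods describe a shorter incubation. The cells were bought as RA-FLS, and how many animals they came from is not stated in the sources used here. The methods call the 3 libraries of a group biological replicates, but the labels do not say that they came from separate cultures, so p-values measure the spread between these samples, which may be technical.

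COPII vesicles carry newly made proteins out of the endoplasmic reticulum (ER). The GTPase Sar1 inserts into the ER membrane and recruits the Sec23-Sec24 inner coat, in which Sec24 binds cargo, and the Sec13-Sec31 cage then closes over it at exit sites organised by Sec16. COPI vesicles, whose coat is the preassembled coatomer recruited by the GTPase Arf1, carry escaped ER proteins and membrane back from the Golgi, with KDEL receptors binding soluble ER chaperones and p24 proteins acting as cargo adaptors in both directions. In fibroblasts this route carries procollagen and other matrix proteins to the cell surface.

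The libraries held 16813322 to 17794455 counts on genes, so that counting error was small for most members. At this depth a gene was called undetected at 3 counts or fewer, which limits reads counted to that gene and covers counting error only. Counts were scaled by TMM to normalized counts and tested with edgeR's quasi-likelihood test. Gene positions in the text are those of the deposited table (Rnor_6.0 by the submitters' processing notes). A gene that passed an adjusted p of 0.05 is said to have risen or fallen with EMO, and it is called a DEG where its absolute log2 fold change (TNF-α+EMO over TNF-α) was also over 1. The labelled cell type was checked against fibroblast markers. The 11 marker genes in the table summed to 12252 to 13256 CPM (counts scaled to the library total) in the TNF-α libraries and to 1984 to 2126 in the TNF-α+EMO libraries. Most of this sum was Col1a1 and Vim with TNF-α, and Vim with EMO. Col1a1 had 121730, 116899 and 102801 counts with TNF-α and 3554, 3672 and 3637 with EMO. Vim had 63786, 61485 and 63508 with TNF-α and 30071, 32836 and 31949 with EMO. Of the 9 that were tested, 7 were DEGs with lower values and 1, Dcn, with higher values. The remaining tested marker, Vim, fell by 0.92 on the log2 scale, under the fold threshold. Dcn was scarce in both groups, at 0, 4 and 1 counts with TNF-α and 33, 24 and 26 with EMO. Col1a1, which encodes the main chain of type I collagen, had a log2 fold change of -4.91. That of Col3a1 was -8.76 and that of Pdgfra -6.59. Thy1 and Prg4, which mark synovial fibroblasts, stayed at 7 counts or fewer. Of the macrophage markers, Ptprc, Cd163, Adgre1 and Tyrobp were at 3 counts or fewer in every library, while the list of 10 summed to 72.7 to 78.4 CPM with TNF-α and 42.1 to 45.1 with EMO. Its 3 tested members did not move together: Cd14, which carried most of the sum, fell by 1.10 on the log2 scale, Cd68 rose by 0.75, and Itgam, with 0 or 1 count with TNF-α and 10 to 14 with EMO, was a higher DEG. The 5 endothelial markers summed to 4.59 CPM at most, with Kdr at 3 counts or fewer. Vwf, the only 1 of them tested, had 54, 56 and 54 counts with TNF-α and 9, 2 and 2 with EMO. It was a lower DEG (log2 fold change -3.55). The 6 T cell markers summed to 0.471 at most, with Cd3e and Cd4 at 3 counts or fewer. Epcam and Krt18 were also at or under 3 counts, although the 6 epithelial markers summed to 601 to 660 with TNF-α and 112 to 129 with EMO, nearly all of it Krt8. Cldn4, the other tested epithelial marker, went the other way, from 0 counts in every TNF-α library to 16, 17 and 28 with EMO, and was a higher DEG. The part of these marker differences in the results on the coat genes was not tested, and in bulk RNA fewer cells of a type and less RNA per cell cannot be told apart.

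Most of the coat genes were higher with EMO. Of the 36 tested, 30 rose and 5 fell (Copg2, Sec24b, Sec22c, Lman1 and Tmed8), and 1, Sec24c, did not pass the test. Among all tested genes 80.9% passed, 39.4% upward and 41.4% downward. As DEGs, 13 members were higher, where 19.5% of all tested genes were, and 1 member (Tmed8) was lower, where 27.8% were (47.3% in either direction). The median log2 fold change of the members was 0.76, with a range from -1.54 to 2.14. For all tested genes it was -0.01, with quartiles of -1.21 and 0.80. With TNF-α the members together took 0.539%, 0.550% and 0.553% of a library's counts, and with TNF-α+EMO 0.952%, 0.923% and 0.893%. The groups did not overlap for 35 of the 36 members, where 82.9% of all tested genes did not.

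**Figure D1:**
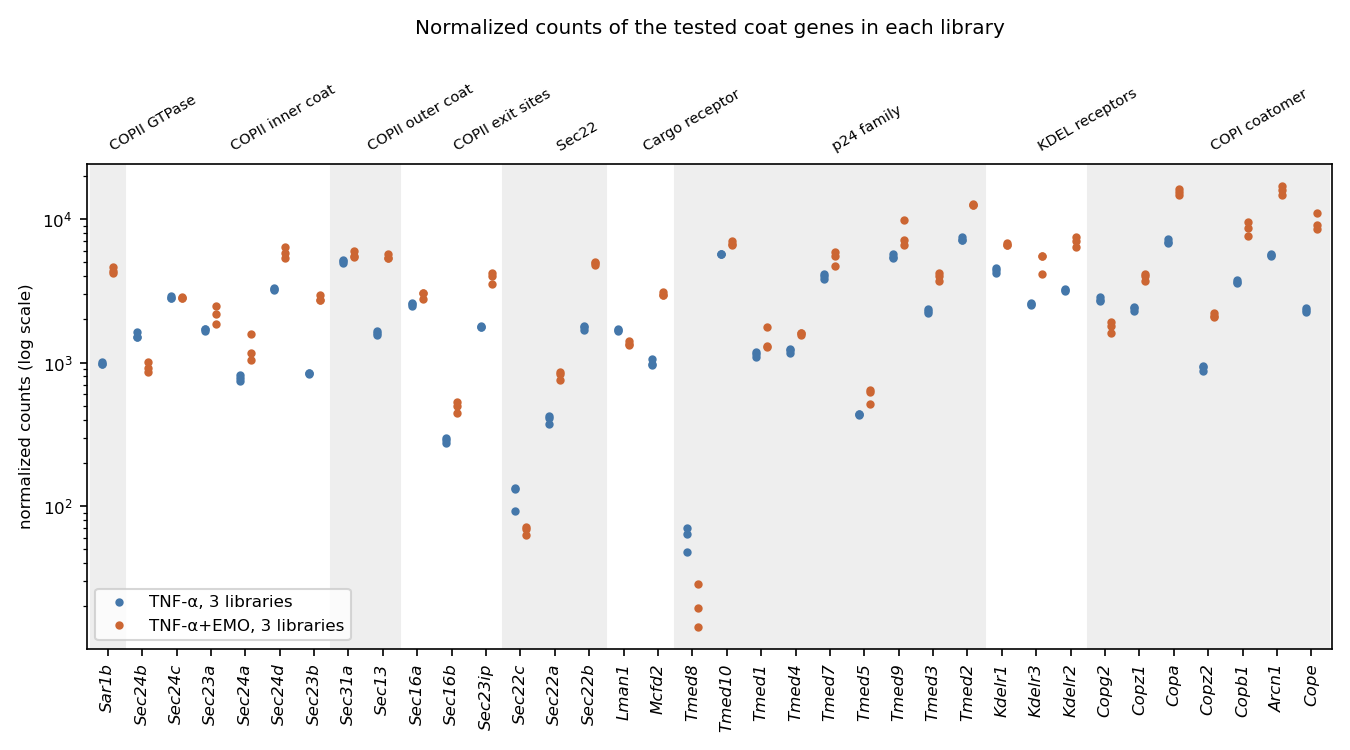
Normalized counts of each tested coat gene in each library, on a log axis, with genes ordered by role and 3 points for each group. The groups are apart for every gene but Sec24c, and the TNF-α+EMO points are the higher ones for 30 of the 36 genes.

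The largest rise was that of Sar1b (chr10:37215937-37245658), the GTPase that starts COPII assembly. Its normalized counts were 971, 1013 and 984 with TNF-α and 4625, 4173 and 4314 with TNF-α+EMO. Every EMO library stood far above every TNF-α library. This is a 4.42-fold rise (log2 fold change 2.14, standard error 0.06, adjusted p = 1.7e-10). Its paralog Sar1a was not analysed here.

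Of the inner coat genes, Sec23 is the GTPase-activating partner of Sar1 and Sec24 the cargo-binding adaptor, and both exist as paralogs. Sec23b (chr3:138715570-138757111) had 831, 843 and 849 normalized counts with TNF-α and 2933, 2723 and 2731 with EMO. Sec23a had 1724, 1667 and 1710 with TNF-α and 2472, 2189 and 1844 with EMO. Both rose, but their order turned over: Sec23a was the higher paralog in every TNF-α library and Sec23b in every TNF-α+EMO library. The rise was 3.33-fold for Sec23b (log2 fold change 1.73, standard error 0.06, adjusted p = 6.5e-10) and 1.28-fold for Sec23a (0.35, standard error 0.09, adjusted p = 0.005465).

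The 4 Sec24 paralogs, which differ in the cargo they select, went different ways. Sec24d, needed for procollagen export, had 3204, 3258 and 3327 normalized counts with TNF-α and 6381, 5836 and 5336 with EMO (log2 fold change 0.84, standard error 0.07, adjusted p = 7.6e-07). Sec24a had 813, 746 and 786 against 1583, 1167 and 1042 (0.69, standard error 0.14, adjusted p = 0.001331). For both, the lowest EMO library lay above the highest TNF-α library, and for Sec24a the EMO libraries were widely spread. Sec24b, by contrast, fell from 1514, 1644 and 1503 to 1016, 919 and 862, 1.67-fold lower with EMO (log2 fold change -0.74, standard error 0.08, adjusted p = 5.9e-06). Sec24c had 2928, 2819 and 2837 with TNF-α and 2824, 2831 and 2873 with EMO. Its groups overlapped, and its log2 fold change (-0.01, standard error 0.05, adjusted p = 0.8796) changed sign when single EMO libraries were left out.

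In the outer cage, Sec13 and Sec31 form the heterotetramer from which the lattice is built. Sec13 (chr4:145686193-145699577), which is also a subunit of the nuclear pore, had 1556, 1665 and 1608 normalized counts with TNF-α and 5345, 5346 and 5708 with EMO. The EMO libraries were close to each other and far above the TNF-α ones, and the rise was 3.40-fold (log2 fold change 1.76, standard error 0.06, adjusted p = 4.7e-10). Its partner Sec31a went from 5075 ± 106 to 5639 ± 263 (SD, n = 3 each), or 0.15 in log2 units (standard error 0.06, adjusted p = 0.03139), and this call was lost under 8 of the alternatives, among them library totals and leaving out any TNF-α library. Sec31b, the paralog of Sec31a, was at 3 counts or fewer in every library. The 2 components of the cage thus had different log2 fold changes, 1.76 and 0.15, a difference that was not tested.

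At the exit sites, the lipid-binding protein Sec23ip (p125) had 1807, 1769 and 1782 normalized counts with TNF-α and 4197, 3976 and 3548 with EMO, all EMO values being above all TNF-α values (log2 fold change 1.13, standard error 0.07, adjusted p = 6.0e-08). The scaffold genes Sec16a and Sec16b rose less, by log2 fold changes of 0.21 (adjusted p = 0.008142) and 0.78 (adjusted p = 2.3e-05). Sec16b was much the scarcer at 3.83 ± 0.146 CPM per kilobase with TNF-α, against 16.6 ± 0.347 for Sec16a (SD, n = 3 each).

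Preb (Sec12), the exchange factor that loads Sar1 with GTP, was listed at 0 in all 6 libraries. Its deposited span of 3787 bases lies wholly inside that of Abhd1 on the opposite strand, and Abhd1 itself had 199 to 372 counts. Whether reads of Preb were counted elsewhere was not tested, since the counting program and strand setting are not given in the sources used here. In all, 12 of the 14 COPII genes were tested: 10 rose, 4 of them as DEGs, 1 fell, and their median log2 fold change was 0.74. Of all tested genes, 39.4% rose, 41.4% fell and 19.5% were higher DEGs.

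Of the COPI coatomer, 7 genes were tested, 6 rose and 5 of these were DEGs (Arcn1, Copa, Copb1, Cope and Copz2), with a median log2 fold change of 1.22. The shares among all tested genes were 39.4% that rose and 19.5% that were higher DEGs. Cope (chr16:20863141-20873521) encodes ε-COP, which sits with α-COP in the cage-like subcomplex. Cope had 2396, 2313 and 2253 normalized counts with TNF-α and 8535, 9132 and 10959 with EMO. The EMO libraries were the more spread, yet all were over 3 times the TNF-α values, and the rise was 4.11-fold (log2 fold change 2.04, standard error 0.09, adjusted p = 3.8e-09). Arcn1 (chr8:49051246-49075892), the δ-COP subunit of the adaptor-like subcomplex, had 5552, 5737 and 5631 against 17054, 15981 and 14688, a 2.82-fold rise (log2 fold change 1.50, standard error 0.07, adjusted p = 3.1e-09).

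Copa, which encodes α-COP, had 6787, 7227 and 6920 normalized counts with TNF-α and 16142, 15298 and 14597 with EMO (log2 fold change 1.14, standard error 0.06, adjusted p = 1.3e-08). Copb1, for β-COP, had 3579, 3624 and 3743 against 9524, 8682 and 7565 (1.24, standard error 0.08, adjusted p = 9.1e-08). In Arcn1, Copa and Copb1 alike the first EMO library was the highest and the third the lowest, while every EMO library stayed above every TNF-α library. Copz1 and Copz2 encode the alternative ζ subunits. Copz2 had 876, 925 and 953 against 2098, 2090 and 2222 (1.22, standard error 0.06, adjusted p = 1.5e-08), and Copz1 had 2416, 2422 and 2275 against 4164, 4011 and 3694 (0.74, standard error 0.06, adjusted p = 1.1e-06). Both ζ genes were higher in all EMO libraries.

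Copg2 (chr4:58064833-58195143), which encodes the alternative γ subunit, was the exception in the coatomer. Its normalized counts were 2681, 2840 and 2710 with TNF-α and 1916, 1802 and 1619 with EMO, with no overlap, 1.54-fold lower (log2 fold change -0.62, standard error 0.07, adjusted p = 1.0e-05). Copg1 and Copb2 were not analysed here. The 7 tested genes thus include both ζ paralogs and lack Copg1 and Copb2, so they are not the subunits of a whole coatomer. Per kilobase of gene length, the highest of these genes was 2.04 to 2.20 times the lowest in the TNF-α libraries. Arcn1 was highest and Cope lowest. In the TNF-α+EMO libraries the ratio was 6.62 to 6.77, with Arcn1 highest at 264 ± 19.7 and Copg2 lowest at 39.6 ± 3.34 CPM per kilobase (SD, n = 3 each).

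The 2 coatomer genes for ζ subunits each hold a microRNA gene in the same orientation, Mir148b in Copz1 and Mir152 in Copz2, whose mature 3p forms share a seed. Both microRNA genes were at 0 counts in these poly(A)-selected libraries, so their levels were not measured. The mature sequences are shown because the pair of hosts carries a pair of related guides, with bases 2 to 8 in capitals (RefSeq, GRCr8, both on the plus strand at chr7:136299930-136299951 and chr10:82329435-82329455).
rno-miR-148b-3p: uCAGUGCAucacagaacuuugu
rno-miR-152-3p: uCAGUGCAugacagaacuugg

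Retrieval and cargo receptors mostly rose. KDEL receptors bind ER chaperones in the Golgi and return them in COPI vesicles. Kdelr2 (chr12:13192453-13210758) had 3155, 3262 and 3206 normalized counts with TNF-α and 7454, 7050 and 6421 with EMO, a 2.17-fold rise (log2 fold change 1.12, standard error 0.07, adjusted p = 3.7e-08). Kdelr3 had 2513, 2578 and 2557 against 5488, 5510 and 4152 (0.99, standard error 0.10, adjusted p = 5.8e-06), and Kdelr1 had 4444, 4538 and 4215 against 6591, 6859 and 6546 (0.60, standard error 0.06, adjusted p = 2.1e-06). All 3 were higher in every EMO library. Kdelr3 lay just under the fold threshold, and without its lowest EMO library, the third, it was a DEG at 1.13.

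Lman1 (ERGIC-53) and Mcfd2 form 1 receptor complex, which exports coagulation factors V and VIII, and they went opposite ways. Mcfd2 (chr6:10887288-10899200), the soluble calcium-binding subunit, had 984, 963 and 1061 normalized counts with TNF-α and 3095, 2973 and 2936 with EMO. Lman1, the transmembrane lectin, had 1683, 1654 and 1726 against 1344, 1319 and 1416. Neither gene overlapped between the groups. Mcfd2 rose 2.99-fold (log2 fold change 1.58, standard error 0.06, adjusted p = 1.6e-09), and Lman1 was 1.24-fold lower (-0.31, standard error 0.06, adjusted p = 0.00069).

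The Sec22 proteins are longin-domain proteins, of which Sec22b is the SNARE for traffic between ER and Golgi. Sec22b (chr2:200076054-200098076) had 1786, 1772 and 1680 normalized counts with TNF-α and 4807, 4984 and 4964 with EMO, a 2.82-fold rise (log2 fold change 1.49, standard error 0.06, adjusted p = 1.1e-09). Sec22a had 373, 421 and 409 against 865, 829 and 758 (1.03, standard error 0.09, adjusted p = 9.1e-07), with no overlap. Its fold change was so near the threshold that it was a DEG in 10 of 15 alternative fits. Sec22c fell, from 134, 131 and 92.5 to 62.9, 71.6 and 69.3 (-0.81, standard error 0.20, adjusted p = 0.003536).

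**Figure D2:**
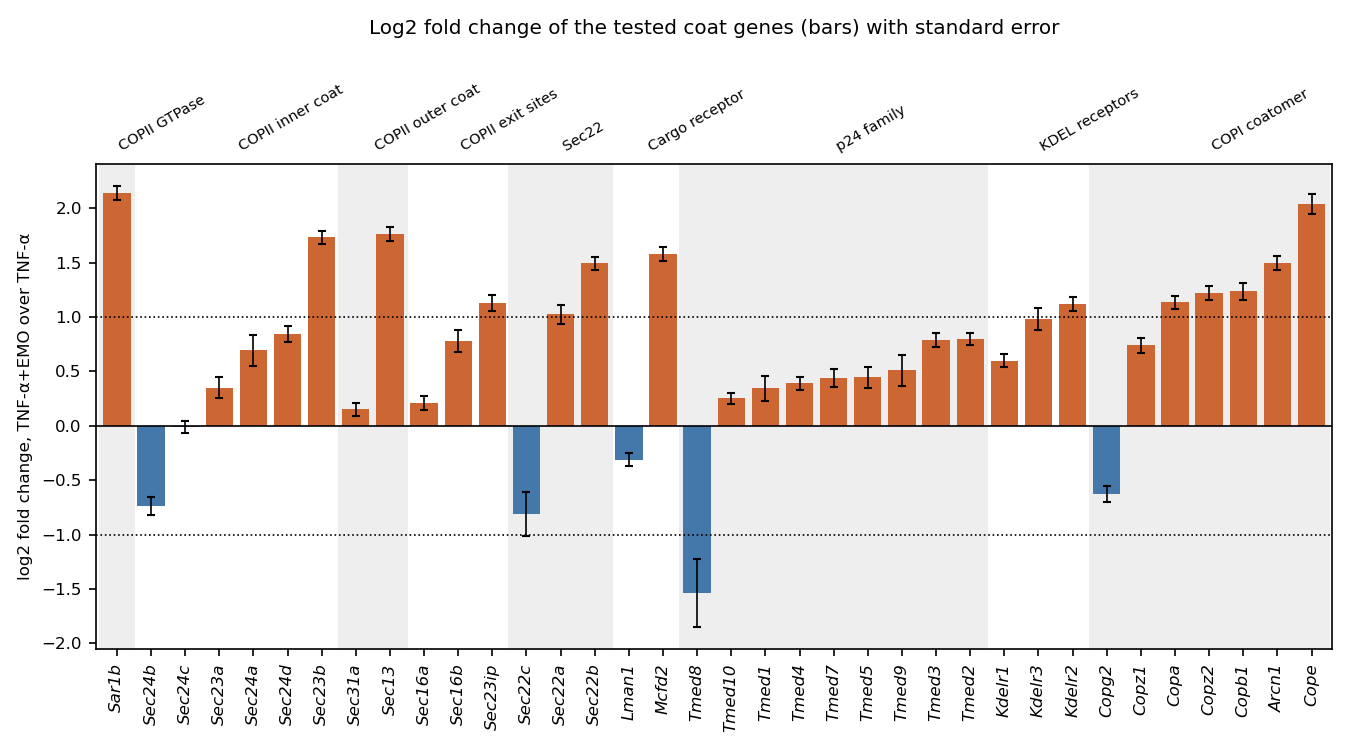
Log2 fold change (TNF-α+EMO over TNF-α) of each tested coat gene with its standard error, grouped by role. COPI genes lie mostly above 1 apart from Copz1 and Copg2, whereas all p24 genes lie under 1 and Tmed8 lies at -1.54.

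The p24 family had the lowest median fold change of the roles with 3 or more tested genes. Of its 11 members 9 were tested, 8 rose, none of them as a DEG, and 1 fell as a DEG, with a median log2 fold change of 0.44. Among all tested genes 39.4% rose, 19.5% were higher DEGs and 27.8% lower DEGs. Tmed2 and Tmed10, core subunits of the p24 heterotetramer, are among the most abundant coat genes per kilobase. Tmed2 rose from 7218 ± 222 to 12575 ± 175 (SD, n = 3 each, normalized counts), which is 0.80 on the log2 scale (adjusted p = 1.1e-07), and Tmed10 from 5669 ± 5.88 to 6751 ± 221, which is 0.25 (adjusted p = 0.001269). Tmed3 was near Tmed2 at 0.79 (standard error 0.06, adjusted p = 5.9e-07). The other rising members, Tmed1, Tmed4, Tmed5, Tmed7 and Tmed9, had log2 fold changes of 0.34 to 0.51, and Tmed9 was spread over 6553, 7195 and 9850 with EMO against 5429, 5377 and 5728 with TNF-α. The whole span of Tmed4 lies inside Npc1l1 on the same strand, where Npc1l1 had 0 or 1 count with TNF-α and 167 to 176 with EMO, so reads of the pair may have been split. Tmed1 overlaps the end of Dnm2 by 101 bases.

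Tmed8 (chr6:111194951-111222858) was the only member that was a DEG with a lower value. Its normalized counts were 63.8, 70.2 and 47.7 with TNF-α and 14.4, 19.4 and 28.5 with EMO. No EMO library reached the lowest TNF-α library, and the level was 2.90-fold lower (log2 fold change -1.54, standard error 0.31, adjusted p = 0.00085). It was also the scarcest tested member, at 3.59 CPM per kilobase with TNF-α. Tmed11 was at 0 in all libraries, and Tmed6 had 1 count in 1 TNF-α library and 0 elsewhere.

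Paralog balance was compared within each library, as the ratio of levels per kilobase, by an exact permutation test over the 6 libraries. With 3 against 3 the smallest p this test allows is 0.1, so it cannot reach 0.05. Of 7 pairs, 6 did not overlap between the groups and had this smallest p (0.117 adjusted over the 7 pairs). Among all tested genes, 82.9% did not overlap as single genes, and no such share was taken over other gene pairs. The ratio of Sec23a to Sec23b was 1.38 with TNF-α and 0.526 with EMO, a difference of -1.39 on the log2 scale. That of Sec24a to Sec24b went from 0.421 to 1.12 (1.41), and that of Sec24c to Sec24d from 0.662 to 0.368 (-0.85). Smaller shifts were seen for Copz1 to Copz2 (-0.48), Kdelr2 to Kdelr1 (0.52) and Kdelr3 to Kdelr1 (0.37). For Sec24d to Sec24a, at 6.87 and 7.72, the groups overlapped (exact permutation p = 0.3). With the length adjustment described with gene length, the shift of Copz1 to Copz2 was -0.13 and that of Kdelr3 to Kdelr1 was 0.60, and that of Sec24d to Sec24a changed sign, from 0.17 to -0.28.

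In shares of each family's summed level per kilobase, Sec23b went from 42.0% ± 0.591 to 65.5% ± 2.61 of Sec23 (SD, n = 3 each). Sec24d went from 46.4% ± 0.785 to 61.9% ± 0.903 of Sec24 and Sec24b from 16.1% ± 0.799 to 7.18% ± 0.0488. Sec24c, whose own level did not pass the test, went from 30.7% ± 0.696 to 22.8% ± 1.94. Copz2 made up 49.8% ± 1.83 of the ζ sum with TNF-α and 58.0% ± 2.28 with EMO, and Kdelr1 went from 43.7% ± 0.936 to 36.4% ± 2.48 of the KDEL receptors.

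**Figure D3:**
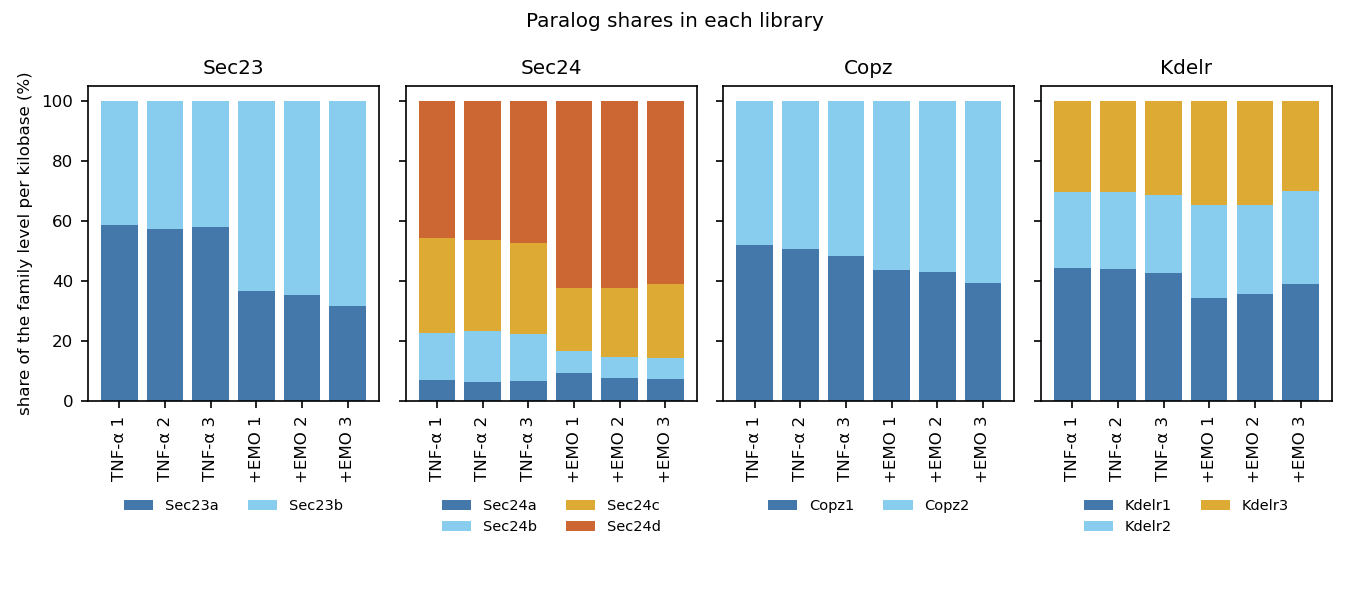
Share of each paralog in its family's summed level per kilobase (percent, bars stacked to 100) in each of the 6 libraries. Sec23b and Sec24d take the larger shares in all 3 TNF-α+EMO libraries, and the libraries of a group look alike.

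Sar1b and Sec24a lie head to head on chromosome 10, so that 2 COPII genes share the sequence between their starts. In the deposited coordinates Sec24a ends at 37215899 on the minus strand and Sar1b begins at 37215937 on the plus strand, with 37 bases between them. In the RefSeq GRCr8 annotation 61 bases separate the start sites. The window that both promoters share is printed because its genes had log2 fold changes of 2.14 and 0.69 (GRCr8, chr10:36525254-36525414, plus strand). The capitals mark its 1 CCAAT box, which reads ATTGG on this strand.
Sar1b and Sec24a shared window: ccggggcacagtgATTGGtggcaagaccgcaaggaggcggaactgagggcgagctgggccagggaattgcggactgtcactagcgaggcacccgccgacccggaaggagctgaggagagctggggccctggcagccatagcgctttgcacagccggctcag

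Promoter windows from 250 bases before to 50 after the RefSeq start site (GRCr8) were searched on both strands for the elements of the ER and Golgi stress responses, and 36 of the 40 members had a window. Entries for Sec24c, Sec24d, Kdelr2 and Tmed11 were not used here. The 36 include Preb, Sec31b and Tmed6, which were not among the tested genes. The Golgi stress element ACGTGGC was present in 10 of the 36 (27.8%), against 2.30% of all 33469 windows and 3.79% of the 9200 tested genes with a window. These were Arcn1, Copz2, Kdelr3, Sec13, Sec22a, Sec23a, Sec31a, Tmed2, Tmed3 and Tmed9. The unfolded protein response element TGACGTGG was present in 4 members (11.1%, Copa, Copb1, Kdelr3 and Sec23a), against 0.957% of the tested genes with a window. TGACGTCA, the cyclic AMP response element, was present in 1 member, Cope, against 3.18% of the tested genes with a window. The ER stress elements ERSE and ERSE-II were found in 0 members, and in 0.163% and 0.0978% of the tested genes with a window. ACGTGGC and TGACGTGG share 6 letters, and in Sec23a and at 1 site of Kdelr3 they overlap, so these 2 genes are counted for both.

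All 10 genes with ACGTGGC were tested and all 10 rose, 4 of them as DEGs, with a median log2 fold change of 0.89. Of the 23 tested members with a window but without these letters, 18 rose, 8 of them as DEGs, with a median of 0.60. Of all tested genes, 39.4% rose and 19.5% were higher DEGs. A match of letters is a description and was not tied to the levels by any test. The following windows show the element in capitals, in the direction of each gene, for the DEGs with a match and for Sec23a and Kdelr3, where both elements overlap. In Arcn1 it begins at -32 from the start site (chr8:53979016-53979052, minus strand) and in reverse at -5 in Sec13 (chr4:148446719-148446755, minus strand), at 31 in Copz2 (chr10:82328903-82328937, plus strand) and at -80 in Sec22a (chr11:78907849-78907885, plus strand). In Sec23a the capitals mark TGACGTGG at -91, whose last 6 letters begin ACGTGGC (chr6:82440973-82441010, minus strand), and the same element lies at 31 in Copa (chr13:87078883-87078917, plus strand) and in reverse at -6 in Copb1 (chr1:177872824-177872861, minus strand). The Kdelr3 window marks the overlapping site at -101 in reverse (chr7:112959516-112959553, plus strand), and the Cope window the cyclic AMP element at -223 (chr16:19159238-19159275, minus strand).
Arcn1: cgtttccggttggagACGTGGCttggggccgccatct
Sec13: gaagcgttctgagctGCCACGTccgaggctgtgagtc
Copz2: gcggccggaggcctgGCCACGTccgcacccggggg
Sec22a: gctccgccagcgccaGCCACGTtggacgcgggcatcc
Sec23a: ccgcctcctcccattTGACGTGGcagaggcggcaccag
Copa: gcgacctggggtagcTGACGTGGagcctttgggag
Copb1: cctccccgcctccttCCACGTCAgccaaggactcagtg
Kdelr3: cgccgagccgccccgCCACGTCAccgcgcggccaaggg
Cope: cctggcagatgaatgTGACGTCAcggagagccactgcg

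A further list held transcription factors known to act on coat genes, together with enzymes that cleave such factors or splice Xbp1. Of its 11 genes 9 were tested, factors and enzymes counted together. They were mixed, with 5 that rose, 3 that fell, 1 that did not pass and a median log2 fold change of 0.33. Atf6, a sensor that is cleaved in the Golgi during ER stress, had 1414, 1458 and 1384 normalized counts with TNF-α and 10505, 9100 and 8105 with EMO. No EMO library came near the TNF-α ones, and the log2 fold change was 2.70 (standard error 0.09, adjusted p = 5.0e-10). Xbp1 (1.09, adjusted p = 1.2e-08) and Creb3 (1.32, adjusted p = 9.2e-09) also rose as DEGs, while Ern1, the splicing enzyme for Xbp1 (0.87), and Atf6b (0.33) rose under that threshold. Xbp1 came under the threshold at its lowest, 0.98, in 2 of 15 alternative fits (library totals and without TNF-α replicate 1), and the adjusted p of Atf6b was 0.0872 when tested against a fold of 1.2. Creb3l2, a factor known to act on Sec23a in secretory cells, had 4429, 4319 and 3801 against 967, 837 and 862. It was lower in every EMO library (log2 fold change -2.23, standard error 0.08, adjusted p = 8.4e-10), and Creb3l1, known for its part in collagen production, had a log2 fold change of -1.15 (adjusted p = 2.1e-06). Of the proteases that release these factors, Mbtps1 fell by 0.86 on the log2 scale, and Mbtps2 had a log2 fold change of 0.02 (adjusted p = 0.822).

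Of the genes that work with the coats, COPI regulators (the exchange factor and activating proteins of Arf1 and Golgi proteins that act with the coat) had 11 tested members, of which 8 rose, 6 as DEGs, and 2 fell, 1 as a DEG, with a median log2 fold change of 1.05. For these lists, as for the coat genes, the shares among all tested genes to read the counts against are 39.4% that rose and 41.4% that fell, 19.5% as higher and 27.8% as lower DEGs. Arfgap3 (1.93) and Arfgap1 (1.54), which trigger GTP hydrolysis on Arf1 in the coat, were the largest rises, and Bicd1, a dynein adaptor, fell by 2.58 on the log2 scale from 383 ± 30.2 to 63.9 ± 12.7 (normalized counts, SD, n = 3 each). Tethers and SNAREs of the ER-Golgi route numbered 46, of which 38 rose, 21 as DEGs, and 4 fell, 2 as DEGs (Trappc2 at -1.03 and Scfd1 at -1.02), with a median of 0.97. Leaving out each library in turn gave 17 to 24 higher DEGs and 0 to 2 lower ones in this list, against 19.5% and 27.8% of all tested genes as reported. Napa (α-SNAP), which disassembles SNARE complexes, had the largest rise at 2.68, from 1710 ± 82.7 to 10947 ± 376 normalized counts, followed by the SNARE Bet1l at 2.11. Scfd1 is the SM protein that works with the same ER-Golgi SNAREs as Sec22b.

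The ER export accessory list had 22 tested members, of which 16 rose, 6 as DEGs (19.5% of all tested genes were), and 2 fell, 1 as a DEG (27.8%), with a median log2 fold change of 0.59. Yif1a, a membrane protein of the early secretory pathway, rose by 2.26, and Ergic1, of the ER-Golgi intermediate compartment, had a log2 fold change of -1.70. Yif1b, the paralog of Yif1a, had 24.5, 37.1 and 268 normalized counts with TNF-α and 790, 1816 and 789 with EMO. The third TNF-α library stood far above the others of its group, and the fold change of this gene (3.36, standard error 1.02, adjusted p = 0.03463) had a wide error. Its call was lost in 6 of 15 alternative fits, with the replicate number as a block and without any single library other than TNF-α replicate 3, and its adjusted p ranged from 0.00177 to 0.109. Without TNF-α replicate 3 its log2 fold change was 5.12.

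**Figure D4:**
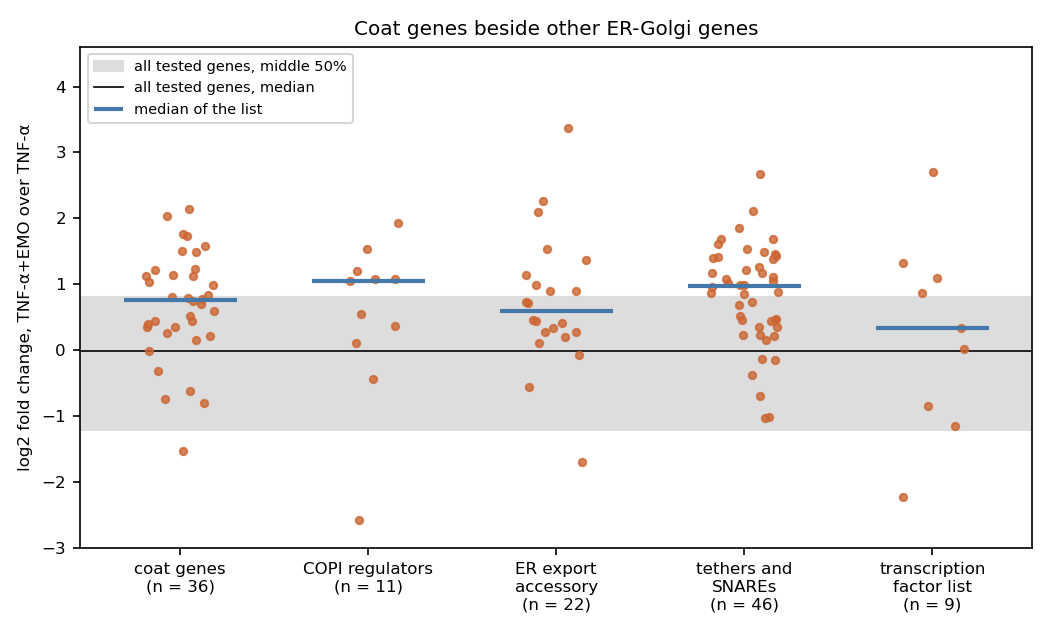
Log2 fold change (TNF-α+EMO over TNF-α) of every tested gene of the coat set and of 4 lists of genes that work with it, with a bar at each median. The medians lie from 0.33 to 1.05, and single genes of the lists reach 3.36 (Yif1b) and -2.58 (Bicd1).

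Gene length moved with the fold change across the whole table. Among all tested genes the median log2 fold change was 0.37 under 1500 bases, 0.09 from 1500 to 3000 bases and -0.45 from 3000 bases. The coat genes of the same bands had medians of 0.56 (12 genes), 0.91 (10 genes) and 0.74 (14 genes). After the running median over genes of like length was subtracted, an adjustment added after seeing the data, the median of the members was 0.75. With the adjusted p of the unadjusted fit kept, 14 members passed the fold threshold upward and 2 downward. The length-adjusted changes themselves were not tested. Sec16a, Sec16b, Sec24a and Sec24d, all from long genes, then passed the fold threshold at 1.28, 1.28, 1.39 and 1.11. Copz2, Kdelr2 and Sec22a dropped under it at 0.79, 0.88 and 0.83, Sec22c passed it downward at -1.28, and Tmed1, Tmed5 and Tmed10 came to 0.0020, 0.038 and -0.052.

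Replicates were tight for these genes. The median coefficient of variation over the members was 3.09% in the TNF-α group and 6.66% in the TNF-α+EMO group, against 6.37% and 10.9% for all tested genes. The 2 sets were not matched for count level, on which this measure depends. With other settings, the adjusted p of Sec16a, Sec23a and Tmed1 was also lost against a fold of 1.2 and without 2 or more of the TNF-α libraries in turn, that of Sec16a and Tmed1 with library totals, and that of Tmed9 without TNF-α replicate 1 or 2. Of the tests run, those of Lman1 and Tmed10 were lost only against a fold of 1.2. The third EMO library was the lowest of its group for 20 of the 36 members and for 5326 of all 13614 tested genes. The first EMO library was the highest for 18 members and for 5096 of all tested genes. Over all tested genes, the third EMO library departed from the mean of the first and second with gene length. The median log2 ratio was 0.13 under 1500 bases and -0.09 from 3000 bases, against 0.08 and -0.18 for the members of these bands.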

How the data were processed

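Poly(A)-selected RNA of 3 TNF-α and 3 TNF-α+EMO libraries was sequenced as paired-end reads. The submitters' processing notes name FastQC, Trimmomatic, HISAT2 and the build Rnor_6.0. The counting program, its strand setting and the annotation version are not given in the sources used here. The authors deposited raw counts per gene for each library, with the gene's length and position, and these counts were used for every result. FPKM values, which take gene length and mapped reads into account, were deposited too and were used for no result. The authors' own comparison made with DEseq (group means, fold changes and p-values) was not used.

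The test was made on the 13614 genes that reached 10 counts in 3 or more libraries. Counts were scaled by TMM and fitted by edgeR 4.0.16 (R 4.3.3) with its robust quasi-likelihood F test, and p-values were adjusted over these genes after Benjamini and Hochberg. DEGs passed an adjusted p of 0.05 and a log2 fold change of more than 1 in size. The standard error is the size of the log2 fold change divided by the square root of F. For normalized counts, each library was scaled to the mean TMM effective size, and levels per kilobase are CPM on that size divided by deposited length in units of 1000 bases. The fit was tested on simulated counts of 13432 genes with the common dispersion, where 90 genes were changed by 1 and 110 by 2 in log2 units. It recovered 94.4% and 100% of these, and 3.47% of its calls were false. With so few genes changed, the simulation cannot check the scaling or error rate in data where 80.9% of genes passed. Libraries held 16813322 to 17794455 counts, so the floor of 3 counts is a small share of any library and covers counting error only.

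Every member of the coat set was accounted for, with values in each library for DEGs and members of the paralog pairs. From each other list, the 2 genes with the largest rise and the 2 with the largest fall were named. These were taken among DEGs of 100 normalized counts or more on average. For the transcription factor list, all tested genes, enzymes included, were named. The members and lists were chosen with earlier results of these data known. The alternatives were DESeq2 1.42.0, upper-quartile scaling, library totals, other filters and thresholds, a test against a fold of 1.2, the replicate block and leaving out each library. A length adjustment, also for the paralog pairs, and the fits for each named gene of the other lists were added after seeing the data. Sar1a, Copb2, Copg1 and Mia3 were not analysed here. Promoter and microRNA sequences are from RefSeq (GRCr8) and were matched by symbol, and no coordinate was converted between builds.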

Additional observations from a re-analysis of the deposited data

How the results depend on the processing

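Over all alternatives the number of coat genes that were DEGs with higher values ranged from 12 to 14 at a log2 threshold of 1, and 25 to 30 rose at the adjusted p alone. With an absolute log2 fold change over 0.5 there were 22 higher and 4 lower, and over 2 there were 2 higher (Sar1b and Cope) and 0 lower. Among all genes these thresholds gave 4376 higher and 4915 lower over 0.5, and 809 higher and 2255 lower over 2. With library totals the median log2 fold change of the members was 0.65, where that of all genes was -0.12. With the length adjustment, which kept the p-values of the main fit, 2 members passed the fold threshold downward. Leaving out each library in turn gave member medians of 0.66 to 0.81. It also gave 1 to 2 lower DEGs, the second being Sec22c without TNF-α replicate 3. The medians of the other lists then ranged from 0.96 to 1.09 (COPI regulators), 0.51 to 0.70 (ER export accessory), 0.87 to 1.01 (tethers and SNAREs) and 0.23 to 0.39 (transcription factors). Lower DEGs among tethers and SNAREs numbered 0 to 2, with 0 without TNF-α+EMO replicate 2 or 3 (Trappc2 and Scfd1 lie just past the threshold).

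Sec24c, which did not pass the test, ranged over the fits that leave out a library from -0.093 without TNF-α replicate 2 to 0.018 without TNF-α+EMO replicate 2, and changed sign without any of the TNF-α+EMO libraries. It was -0.12 with library totals and 0.43 with the length adjustment, where Tmed10 reversed to -0.052. The same adjustment gave differences of -1.07 (Sec23a to Sec23b), 1.81 (Sec24a to Sec24b), -0.68 (Sec24c to Sec24d), -0.28 (Sec24d to Sec24a, reversed), -0.13 (Copz1 to Copz2), 0.68 (Kdelr2 to Kdelr1) and 0.60 (Kdelr3 to Kdelr1). Replicate numbers did not pair the libraries, as the deviations of same-numbered libraries had correlations of -0.00682 to 0.0671. With the replicate number as a block, 13 members were DEGs with higher values and 1 with a lower value, 29 rose and 5 fell, and the median was 0.76. The fits that leave out a TNF-α library tested 12666 to 12685 genes, because the filter asks for 3 libraries. Depth limits Tmed8 and Sec22c most, which had 14.4 to 70.2 and 62.9 to 134 normalized counts.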
